A study of Mus musculus with 12 samples.

Results

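The collagen genes are described here through the estrogen receptor α (ERα) and progesterone receptor (PR) peaks that lie near them in the mouse mammary gland. Members were all protein-coding genes of the mm10 mouse genome build whose symbol is Col, a number, the letter a and a number, which gave 44 of 21887 coding genes. A peak was counted for a gene when its summit, the position of highest signal, lay inside the gene's span or within 50 kb of either end. By the type of collagen they encode, 11 members are fibrillar, 6 are the basement membrane genes Col4a1 to Col4a6, and 27 belong to other types.

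Collagens are triple-helical proteins of the extracellular matrix. Fibrillar collagens such as types I, III and V form the fibres of the stroma, whereas type IV collagen forms the sheet under the epithelium, and the remaining types decorate fibres, anchor the basement membrane, form beaded filaments or span the cell membrane. In the mammary gland, collagen is made largely by fibroblasts, while basement membrane collagen also comes from myoepithelial and endothelial cells. ERα and PR are hormone-activated transcription factors that bind DNA at promoters and at distant sites.

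The study mapped both receptors by chromatin immunoprecipitation and sequencing (ChIP-seq) in whole mammary glands. All mice were raised to 8 weeks, carried implants of estradiol and progesterone (E2 and P4), and were sampled 4 days after implantation. The first genotype carried wild-type Esr1, the gene for ERα, and the other carried the Y541S substitution, in the part of the receptor that binds hormone. Each receptor was mapped in each genotype in 2 libraries, which the submitters call biological replicates, giving 4 groups and 8 libraries. The labels do not say whether the Y541S allele was carried on 1 or both chromosomes, how many mice went into a library, or whether the ERα and PR libraries of 1 number came from the same chromatin. The series title names luminal cells, but the labels give whole glands, which hold epithelium, fibroblasts, fat, vessels and immune cells. In such a mixture, a site used in fewer cells and a site bound less in each cell cannot be told apart. The D542G samples of the series are left out, as not analysed here.

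Peak lists held between 64488 and 113695 peaks, and both Y541S lists were longer than both WT lists for each receptor. The background coverage recovered from the lists, a measure of depth, was lowest for WT PR replicate 2, at 0.927, and highest for WT PR replicate 1, at 2.68. With 2 libraries against 2, an exact permutation test cannot give a p below 0.333, so differences within 1 receptor are given as values and as whether the groups overlap. Members count as called by that overlap, and the share of all coding genes called in the same way is given beside each count.

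Few collagen promoters carried a peak in every library of a receptor. RefSeq promoter sequences, from 250 bases before to 50 bases after a start site (GRCm38.p6, the same assembly as mm10), were at hand for 35 members and for 17492 coding genes. Col1a1, Col5a2, Col12a1, Col14a1 and Col22a1 were among the members without one and enter no promoter count. An ERα peak overlapped the promoter in all 4 ERα libraries for 1 collagen gene, Col16a1, or 2.86%, against 33.6% of coding genes. A PR peak did so in all 4 PR libraries for 0 collagen genes, against 29.3% of coding genes. In all 8 libraries the counts were 0 collagen genes and 24.4% of coding genes. At least 1 library had a peak over the promoter of 22 collagen genes, or 62.9%, against 61% of coding genes. These shares are a description with no test.

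Library by library, the ERα lists covered 6 and 7 of the 35 collagen promoters in WT and 13 and 13 in Y541S, where the coding gene shares were 42.6%, 40.5%, 48.9% and 49.8%. The PR lists covered 0 and 6 in WT and 6 and 12 in Y541S, beside coding gene shares of 31.7%, 47.8%, 49% and 51.9%. The collagen share was below the coding gene share in each of the 8 libraries, and the highest collagen share was 37.1%. The WT PR library with 0 also had the fewest covered promoters among all coding genes, and without it 3 collagen genes (8.57%) and 42.7% of coding genes were covered in the remaining PR libraries. Ranked from the strongest peak down, the peaks over collagen promoters had median ranks between 33.0% and 71.8% of the list in the libraries that had any, and those over all promoters between 9.74% and 38.8% over the 8 libraries.

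**Figure D1:**
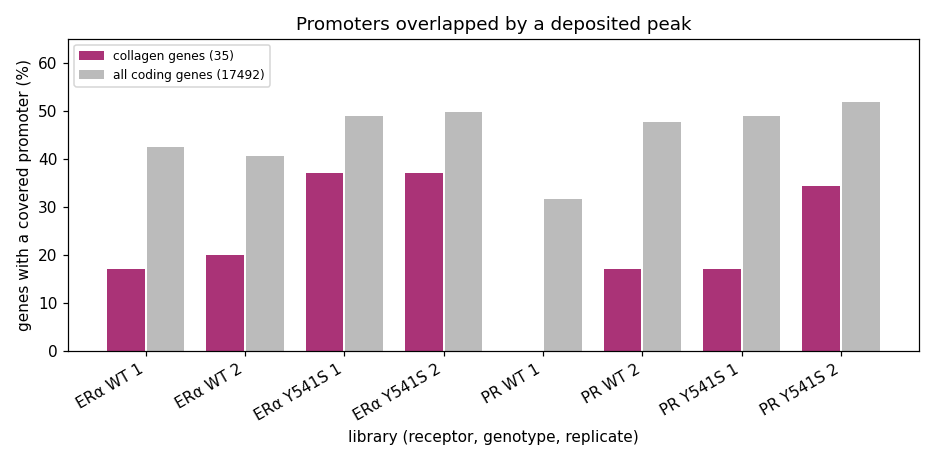
Share of genes whose promoter (250 bases before to 50 after the start) was overlapped by a deposited peak, in percent, for each of the 8 libraries; dark bars are the 35 collagen genes with a promoter sequence and grey bars the 17492 coding genes. The dark bar is the lower one in every library, and it is at 0 in WT PR replicate 1.

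With other rules the counts in all libraries of a receptor remained at or under 3 of 35, and those in at least 1 library moved with the rule. With a summit within 1 kb of a start site in place of the overlap, 3 collagen genes had ERα peaks in all 4 libraries, against 41.5% of coding genes, and 1 had PR peaks, against 37.2%. In at least 1 library, the 1 kb rule gave 27 collagen genes for ERα (77.1%, against 64% of coding genes) and 20 for PR (57.1%, against 63%). Among the 20000 strongest peaks of each list, 3 collagen promoters were covered in at least 1 ERα library (8.57%, against 42.7% of coding genes) and 0 in any PR library (against 27.4%). Which of these genes were transcribed in the gland was not measured, and its part in the difference was not tested.

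Sequences upstream of 6 start sites are shown: Col16a1 as the most widely covered collagen promoter, the 4 promoters covered in both Y541S and neither WT library of a receptor, and Col1a2 as a type I collagen gene without any promoter peak. Only bases outside the annotated gene are printed, 5′ to 3′ on the gene's strand, and capitals mark AGGTCA, a single arm of the estrogen response element. Col5a3 falls outside the rule by which genes were named and was chosen after its values were seen.
Col16a1 (chr4:130047590-130047816, plus strand): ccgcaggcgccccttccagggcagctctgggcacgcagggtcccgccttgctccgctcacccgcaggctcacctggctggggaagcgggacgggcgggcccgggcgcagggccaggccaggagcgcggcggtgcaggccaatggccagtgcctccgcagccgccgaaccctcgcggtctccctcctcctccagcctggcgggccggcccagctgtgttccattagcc
Col5a3 (chr9:20815118-20815317, minus strand): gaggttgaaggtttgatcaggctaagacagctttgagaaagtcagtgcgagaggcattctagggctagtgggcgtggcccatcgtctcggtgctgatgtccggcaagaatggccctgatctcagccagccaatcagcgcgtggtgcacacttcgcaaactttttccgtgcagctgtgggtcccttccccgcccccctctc
Col4a5 (chrX:141475169-141475369, plus strand): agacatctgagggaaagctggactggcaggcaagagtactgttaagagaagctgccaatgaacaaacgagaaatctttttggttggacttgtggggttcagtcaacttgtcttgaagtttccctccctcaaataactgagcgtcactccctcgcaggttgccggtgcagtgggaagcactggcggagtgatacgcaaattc
Col24a1 (chr3:145292222-145292471, plus strand): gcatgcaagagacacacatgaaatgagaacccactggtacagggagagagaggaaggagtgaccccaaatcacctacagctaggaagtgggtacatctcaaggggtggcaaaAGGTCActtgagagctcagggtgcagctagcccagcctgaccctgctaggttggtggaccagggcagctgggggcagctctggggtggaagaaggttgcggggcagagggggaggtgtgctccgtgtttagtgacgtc
Col18a1 (chr10:77166531-77166780, minus strand): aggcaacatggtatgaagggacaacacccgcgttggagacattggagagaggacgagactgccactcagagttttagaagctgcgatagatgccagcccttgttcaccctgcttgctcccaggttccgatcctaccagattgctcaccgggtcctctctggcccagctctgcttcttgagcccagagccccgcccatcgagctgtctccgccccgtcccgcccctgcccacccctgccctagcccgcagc
Col1a2 (chr6:4505368-4505617, plus strand): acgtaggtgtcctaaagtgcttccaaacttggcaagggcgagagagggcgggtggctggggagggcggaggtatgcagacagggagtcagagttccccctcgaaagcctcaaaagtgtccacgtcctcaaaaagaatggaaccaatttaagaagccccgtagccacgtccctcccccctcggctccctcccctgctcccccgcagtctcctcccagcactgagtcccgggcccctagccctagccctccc

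Col16a1, which encodes a collagen that sits on the surface of fibrils, had the most widely covered collagen promoter, with peaks in 7 of 8 libraries; WT PR replicate 1 was without one. Its ERα fold enrichment there was 2.74 and 3.27 in WT and 3.22 and 3.08 in Y541S, so the genotypes overlapped. Col5a3, a chain of fibrillar type V collagen, Col4a5, a chain of type IV, and Col24a1, a minor fibrillar collagen, had an ERα peak over the promoter in both Y541S and neither WT library. These 3 of 35 were 8.57%, against 3.03% of coding genes. Fold enrichment in the Y541S libraries was 3.22 and 4.79 at Col5a3, 3.75 and 4.05 at Col4a5, and 3.04 and 3.68 at Col24a1. The peaks ranked 47281 and 12401 at Col5a3, 38447 and 30907 at Col4a5, and 75924 and 42123 at Col24a1. The WT ERα lists held 72566 and 64488 peaks, so rank 75924 lies past the end of both. The reverse pattern, both WT and neither Y541S, was seen for 0 collagen genes and 0.177% of coding genes.

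For PR, Col18a1 was the 1 collagen gene (2.86%) with a promoter peak in both Y541S and neither WT library, against 2.58% of coding genes. Col18a1 encodes a basement membrane collagen whose end fragment is endostatin, and the peak lay at its outer start site with fold enrichments of 3.77 and 5.11. It ranked 82990 and 43451 in the Y541S PR lists, and the WT PR lists held 82982 and 93491 peaks. The reverse PR pattern held for 0 collagen genes and 0.0743% of coding genes. The promoter of Col1a2, a chain of type I collagen, had no peak in any library.

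The promoters were also searched for letters of the hormone response elements. AGGTCA, read on both strands, was in 8 of 38 collagen promoters (21.1%) and in 14.7% of 21263 promoters of the same length. Among the bases printed, it was in those of Col24a1 alone. The estrogen response element palindrome, GGTCA and TGACC with 3 bases between them, was in 0 collagen promoters and 0.0517% of all, and ACANNNTGT, the core of the progesterone response element, was in 1 (2.63%), Col20a1, and 5.97%. These shares differ by few promoters and are a description of letters, not of binding.

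Within 50 kb, promoters included, collagen genes had peaks about as densely as other genes. In the ERα lists, 372 and 349 peaks lay near collagen genes in WT and 563 and 510 in Y541S. In the PR lists there were 410 and 454 in WT and 505 ± 50.9 (SD, n = 2) in Y541S, where the lower library had 469. For each receptor both Y541S libraries were above both WT libraries. These peaks made up 0.463% to 0.541% of a list, and their density of 3.79 to 6.11 per 100 kb compared with 3.33 to 5.69 around all coding genes. In each library the density over merged collagen windows was the higher one. It was 6.11 against 5.33 in Y541S ERα replicate 1, the widest gap, and 5.09 against 5.08 in Y541S PR replicate 2, the narrowest. All 44 members had a region of each receptor within reach in at least 1 library, against 91.3% of coding genes for ERα and 89.1% for PR.

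The genotype difference near collagen genes was that of the whole lists. ERα peaks near collagen genes were 1.49-fold more frequent in Y541S than in WT (log2 0.57, SE 0.08, n = 2 libraries a group), and the whole ERα lists were 1.55-fold longer. For PR the fold was 1.17 (log2 0.22, SE 0.13), and that of the whole lists was 1.22. The collagen folds of ERα were 1.51 within replicate 1 and 1.46 within replicate 2, and those of PR 1.32 and 1.03. With lists cut to their 50000 strongest peaks, the log2 difference was -0.066 for ERα and -0.061 for PR. The ERα counts were then 265 and 289 in WT and 282 and 248 in Y541S, and the genotypes overlapped for each receptor. With 20000 peaks a list, the log2 difference was 0.092 for ERα and -0.0094 for PR, again with overlap.

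Between receptors, WT libraries had fewer ERα than PR peaks near collagen genes, at a ratio of 0.835 (log2 -0.26, SE 0.09), and the groups did not overlap. The whole WT lists had a ratio of 0.777. In Y541S the ratio was 1.06 (log2 0.09, SE 0.13), and the groups overlapped. With lists of equal length the WT direction turned, to a ratio of 1.26 among the 50000 and 1.34 among the 20000 strongest peaks, and the Y541S ratios were 1.25 and 1.44. As a share of its list, the collagen count was higher for ERα than for PR in both genotypes, by 1.08-fold in WT and 1.07-fold in Y541S, without overlap. ERα peaks near collagen genes overlapped a peak of the PR library with the same genotype and number in 34.4% and 39.5% of cases in WT and 45.1% and 38.6% in Y541S. The remaining ERα peaks did so in 36.2%, 38.8%, 45.2% and 37.4%, in the same order. PR peaks near collagen genes overlapped an ERα peak in 31.7% and 30.4% of cases in WT and 45.7% and 41.2% in Y541S, and the remaining PR peaks in 31.9%, 25.9%, 41.5% and 38.01%. The collagen share was thus above the rest in 3 of 4 PR libraries and 2 of 4 ERα libraries, and the differences were not tested.

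**Figure D2:**
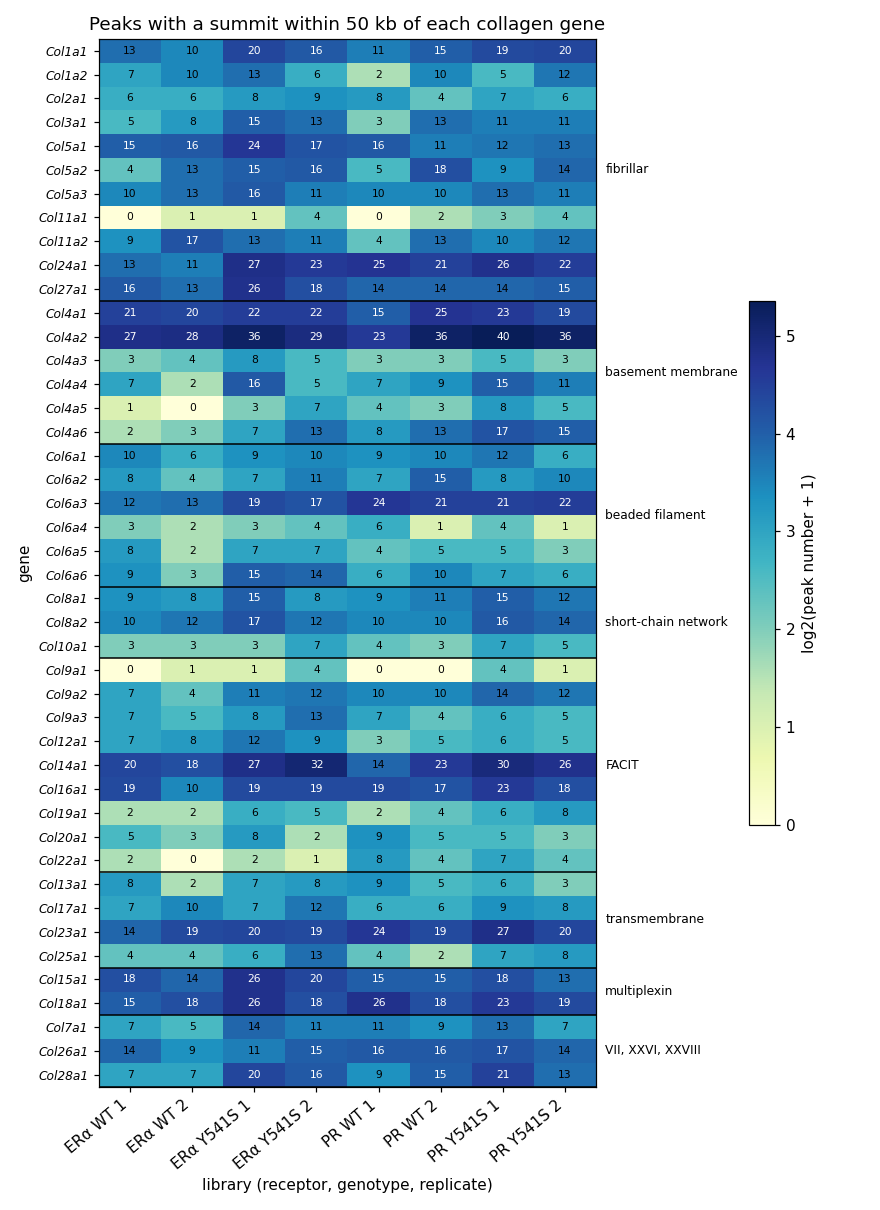
Number of peaks with a summit within 50 kb of each of the 44 collagen genes (vertical axis) in each of the 8 libraries (horizontal axis), coloured by log2(number + 1) with the number printed. Col4a2 has 23 to 40 peaks in each library, while Col22a1 and Col9a1 have at most 8 and 4.

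Fibrillar collagen genes had a higher ERα peak density than basement membrane genes in each of the 4 ERα libraries, a difference that turned when the X-linked members were left out. Around fibrillar genes the ERα density was 4.69 and 5.60 peaks per 100 kb in WT and 8.36 and 6.67 in Y541S. Around basement membrane genes it was 3.78 and 3.34 in WT and 5.41 and 4.75 in Y541S. The fibrillar value was 1.24, 1.68, 1.54 and 1.40 times the basement membrane value in those libraries. Leaving out Col4a5 and Col4a6, which lie on the X chromosome, turned the difference to a log2 ratio of -0.19 for ERα and -0.40 for PR, from 0.54 and 0.17. The autosomal genes that remain include Col4a1 and Col4a2, the densest pair, described below. Coding genes on the X chromosome had a median of 1.10 ERα peaks per 100 kb, against 6.22 on the autosomes, and 1.29 PR peaks against 6.69.

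For PR the fibrillar density was 4.64 and 5.99 in WT and 6.09 and 6.47 in Y541S, and that of basement membrane genes 3.63 and 5.34 in WT and 6.38 and 5.49 in Y541S. The classes overlapped for PR, with ratios of 1.28, 1.12, 0.954 and 1.18. In the other types the ERα density was 3.86 and 3.24 in WT and 5.47 and 5.31 in Y541S. In all 3 classes both Y541S libraries were above both WT libraries for ERα, by 1.46-fold in fibrillar, 1.43-fold in basement membrane and 1.52-fold in other types. The PR folds were 1.19, 1.34 and 1.12, and in the other types the PR groups overlapped.

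**Figure D3:**
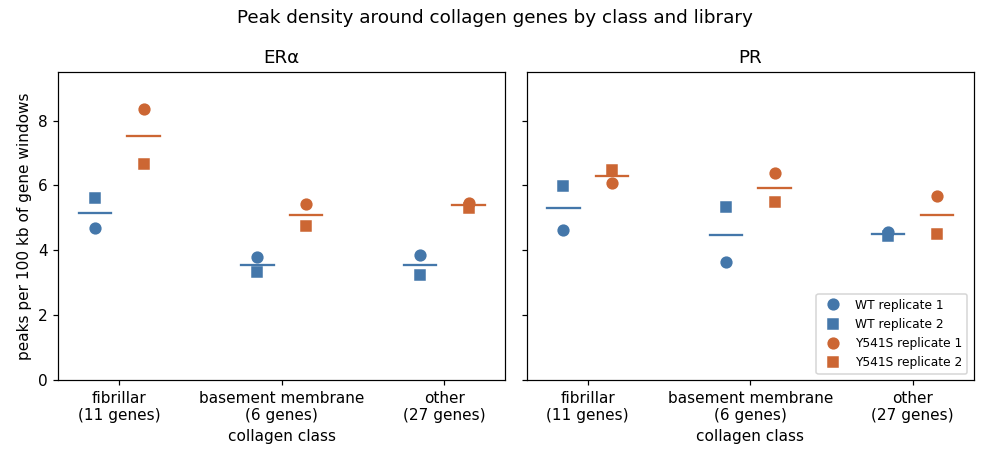
Peaks per 100 kb of merged gene windows for fibrillar (11 genes), basement membrane (6 genes) and other collagens (27 genes), with ERα on the left and PR on the right; each point is 1 library, coloured by genotype, and horizontal marks are the means of 2. ERα points of the fibrillar class lie between 4.69 and 8.36, above those of basement membrane genes of the same library.

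Among the fibrillar genes, those of the main stromal fibres had peaks of both receptors in every library. Col1a1, the α1 chain of type I collagen, had 13 and 10 ERα peaks in WT and 20 and 16 in Y541S. Its PR counts were 11 and 15 in WT and 19 and 20 in Y541S. Both Y541S libraries were above both WT libraries for each receptor. Col1a2, its partner chain, had 7 and 10 ERα peaks in WT and 13 and 6 in Y541S, and 2 and 10 PR peaks in WT and 5 and 12 in Y541S, so both pairs of groups overlapped. The genotypes were separated for Col1a1 and not for Col1a2, and the difference between these genes was not tested.

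Col3a1, the chain of type III collagen in fine reticular fibres, had 5 and 8 ERα peaks in WT and 15 and 13 in Y541S. Its PR counts overlapped, at 3 and 13 in WT and 11 and 11 in Y541S. Its neighbour Col5a2, a chain of type V collagen, which controls fibre width, shares part of the 50 kb windows with it. Col5a2 had 4 and 13 ERα peaks in WT and 15 and 16 in Y541S. Its PR counts were 5 and 18 in WT and 9 and 14 in Y541S, and they overlapped. Col5a1, the other main type V chain, had 15 and 16 ERα peaks in WT and 24 and 17 in Y541S, and 16, 11, 12 and 13 PR peaks in the same order of libraries. For all 3 genes the ERα groups did not overlap and the PR groups did.

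Col24a1 had the most Y541S-only ERα regions of any collagen gene, 5. A region is a set of overlapping peaks of 1 receptor, and it was called Y541S-only when both Y541S and no WT library had a peak there, WT-only when the genotypes were the other way round, and shared when all 4 libraries had a peak. Col24a1 had 13 and 11 ERα peaks in WT and 27 and 23 in Y541S, and 25, 21, 26 and 22 PR peaks. Its ERα groups did not overlap, whereas its PR groups did. The best-placed of its Y541S-only ERα regions ranked 35700 and 16172 in the Y541S lists. Each of the others rests on a weak peak in a Y541S list, at ranks of 75924, 99851, 99852 and 103851. The regions at chr3:145267423-145267845 and chr3:145267964-145268387 lie side by side. The WT ERα lists ended at 72566 and 64488 peaks. With 20000 or 50000 peaks a list, Col24a1 was not among the genes with more ERα peaks in both Y541S libraries. At 20000 it had no Y541S-only ERα region.

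The basement membrane genes lie in 3 neighbouring pairs. Col4a1 and Col4a2 encode the chains found in nearly every basement membrane and lie head to head on chromosome 8 (chr8:11198423-11312889 and chr8:11312805-11449287). Col4a2 had 27 and 28 ERα peaks in WT and 36 and 29 in Y541S, and 23, 36, 40 and 36 PR peaks. Col4a1 had 21 and 20 ERα peaks in WT and 22 and 22 in Y541S, and 15, 25, 23 and 19 PR peaks. For both genes the ERα groups did not overlap, while the PR groups overlapped at Col4a1 and met at 36 peaks at Col4a2. Peaks between the gene starts count for both genes. Around the pair the ERα density was 11.4 and 10.3 per 100 kb in WT and 13.1 and 11.4 in Y541S, which was above the fibrillar value in each library.

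Col4a2 also had the most shared regions of all collagen genes for both receptors, 11 for ERα and 13 for PR. Col4a1 had 6 and 6. The best-placed Y541S-only ERα region near any collagen gene lay inside Col4a1 (chr8:11288316-11288745), where its fold enrichment was 3.74 and 4.96. It ranked within the first 16.6% and 6.06% of the 2 Y541S lists. Col4a1 also held 2 of the 5 WT-only PR regions and 1 of the 5 WT-only ERα regions, so regions of both types lay near 1 gene.

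**Figure D4:**
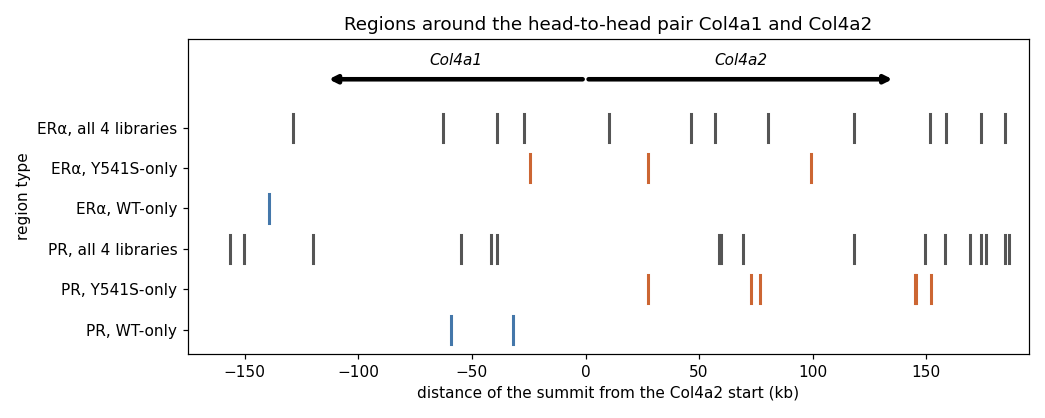
Summits of regions around Col4a1 and Col4a2, plotted by distance from the Col4a2 start in kb, with 1 line for each receptor and type of region (shared, Y541S-only, WT-only); the bars mark the 2 gene spans. Shared regions are spread along both genes and their flanks, and the WT-only regions lie on the Col4a1 side.

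Col4a5 and Col4a6, a second head-to-head pair that encodes chains of more specialised basement membranes, had few ERα peaks in WT. Col4a6 had 2 and 3 ERα peaks in WT and 7 and 13 in Y541S, and 8 and 13 PR peaks in WT and 17 and 15 in Y541S. Col4a5 had 1 and 0 ERα peaks in WT and 3 and 7 in Y541S, and 4 and 3 PR peaks in WT and 8 and 5 in Y541S. Both genes were higher in both Y541S libraries for each receptor, and both had 0 shared ERα regions and 2 Y541S-only ones. The windows of these genes overlap, and the 2 Y541S-only regions are the same for both. Shared PR regions numbered 6 at Col4a6, of which 2 also count for Col4a5. Around the third pair, Col4a3 and Col4a4, named after their values were seen, the ERα density was 2.41 and 1.61 in WT and 5.35 and 2.68 in Y541S. The fibrillar density was 1.56 to 3.49 times that value over the ERα libraries, so this autosomal pair was also below the fibrillar class, and only Col4a1 and Col4a2 were above it.

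The beaded filament genes encode type VI collagen, which links cells to the fibrous matrix. Col6a3 held the strongest ERα region near any collagen gene. This region lay 28.3 kb beyond the gene's end (chr1:90738123-90739063), and Col6a3 was its closest coding gene. It ranked 43 and 26 in the WT lists and 49 and 64 in the Y541S lists, with fold enrichments of 17.2, 18.7, 18.1 and 19.1. The fold enrichments of the genotypes overlapped, and both WT ranks were better than both Y541S ranks in lists of unequal length. A PR region lay at the same place in all 4 PR libraries, where the WT fold enrichments were 8.39 and 8.98 and those of Y541S were 11.4 and 10.5.

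Around Col6a3 as a whole there were 12 and 13 ERα peaks in WT and 19 and 17 in Y541S, against 24, 21, 21 and 22 PR peaks. Every PR library was above every ERα library. Col6a1 and Col6a2, which lie near each other, had 10, 6, 9 and 10 and 8, 4, 7 and 11 ERα peaks in the order WT, WT, Y541S, Y541S, with overlap of the genotypes in both. Their PR counts were 9, 10, 12 and 6 and 7, 15, 8 and 10, again with overlap. Col6a6, a more restricted type VI chain, held 1 of the 3 best-placed Y541S-only ERα regions (chr9:105819685-105820012), with fold enrichments of 4.26 and 4.41.

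The collagens that bind to fibrils included members with more ERα and members with more PR peaks. Col14a1, made by fibroblasts in dense tissue, had 20 and 18 ERα peaks in WT and 27 and 32 in Y541S, and 14 and 23 PR peaks in WT and 30 and 26 in Y541S, so both receptors separated the genotypes. It had the most Y541S-only PR regions of any collagen gene, 7. Col12a1, a related gene, had 7, 8, 12 and 9 ERα peaks and 3, 5, 6 and 5 PR peaks, and each ERα library was above each PR library. Col22a1, a collagen of tissue junctions, had 2, 0, 2 and 1 ERα peaks and 8, 4, 7 and 4 PR peaks, the reverse order of the receptors. A PR region inside it (chr15:71806956-71807777) was nevertheless among the 3 best-placed shared PR regions, with fold enrichments of 14.05, 21.04, 24.2 and 21.7. Col16a1 had 19, 10, 19 and 19 ERα and 19, 17, 23 and 18 PR peaks, and Col20a1 held a Y541S-only PR region 1.17 kb from its end.

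The multiplexins Col15a1 and Col18a1 lie in vascular and epithelial basement membranes. Col15a1 had 18 and 14 ERα peaks in WT and 26 and 20 in Y541S, and 15, 15, 18 and 13 PR peaks. Its ERα groups did not overlap and its PR groups did. Col18a1 had 15, 18, 26 and 18 ERα and 26, 18, 23 and 19 PR peaks, with no separation of the genotypes for either, and 12 shared PR regions. A WT-only ERα region lay at its inner start site (chr10:77113692-77114080), with fold enrichments of 2.89 and 3.29. The Y541S ERα library of replicate 1 had a separate, weaker peak directly beside it (chr10:77113439-77113689). The region was 1 of 5 WT-only ERα regions and the only 1 of them within 1 kb of a collagen start.

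Other collagens of the epithelial border and of vessels were counted in the same way. Col7a1, the anchoring fibril of the skin, had 7 and 5 ERα peaks in WT and 14 and 11 in Y541S, and 11, 9, 13 and 7 PR peaks. Col17a1, the membrane collagen of hemidesmosomes, had 7, 10, 7 and 12 ERα peaks and 6, 6, 9 and 8 PR peaks. The ERα groups separated for Col7a1 and the PR groups for Col17a1. Col23a1, another membrane collagen, had 14, 19, 20 and 19 ERα and 24, 19, 27 and 20 PR peaks, and 10 shared ERα regions. It held the best-placed shared PR region (chr11:51545519-51546314), inside the gene, at ranks 211, 235, 34 and 113 with fold enrichments of 15.6, 17.9, 22.3 and 19.7. Col8a1 and Col8a2, the short-chain collagens of vessel walls and corneal membranes, each held a region among the best-placed of a type, a shared PR region (chr16:57685789-57686930) and a Y541S-only PR region (chr4:126260730-126261158).

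Counted over all members, most regions near collagen genes met none of the definitions above, each of which needs a peak in both libraries of a genotype. A region with a peak in only 1 library is among these, although it is limited to a genotype. Of 1112 ERα regions, 107 were shared (9.62%), 43 Y541S-only and 5 WT-only, and 957 (86.1%) met none of these definitions. Of 989 PR regions, 166 were shared (16.8%), 59 Y541S-only and 5 WT-only, and 759 (76.7%) met none. A peak in all 8 libraries was found for 65 regions. Over the whole lists, 19612 of 219945 ERα regions and 38120 of 192601 PR regions were shared. Regions near collagen genes made up 0.506% of all ERα regions, 0.546% of the shared, 0.437% of the Y541S-only and 0.361% of the WT-only ones. For PR these values were 0.513%, 0.435%, 0.443% and 0.465%. At least 1 shared ERα region was near 36 of 44 collagen genes (81.8%), against 72.4% of coding genes, and at least 1 shared PR region near 40 (90.9%), against 78.2%. A Y541S-only ERα region was near 25 (56.8%, against 49.4%) and a Y541S-only PR region near 31 (70.5%, against 55.2%). A WT-only ERα region was near 5 (11.4%, against 11.5%) and a WT-only PR region near 5 (11.4%, against 9.64%). A region with a peak in all 8 libraries was near 33 (75%, against 64.8%).

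Collagen genes are long, with a median span of 114 kb against 17.2 kb for all coding genes, and a longer span takes in more regions. Between the quartiles of the collagen lengths, 35.5 to 144 kb, 81.8% of 22 collagen genes and 82.3% of 5045 other coding genes had a shared ERα region. For Y541S-only ERα regions these shares were 59.1% and 59.6%, for shared PR regions 86.4% and 87.7%, and for Y541S-only PR regions 72.7% and 67.4%. A WT-only ERα region was near 13.6% of these collagen genes and 15.1% of the others, and a WT-only PR region near 22.7% (5 genes) and 12.8%. Per length, the median over collagen genes was 5.43 ERα and 5.12 PR peaks per 100 kb, beside 5.88 and 6.33 over all coding genes. Between the quartiles, the medians were 5.71 for collagen and 5.89 for other genes (ERα), and 5.22 and 6.51 (PR). These medians over single genes were the lower ones for collagen, whereas the density over merged windows was the higher one.

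**Figure D5:**
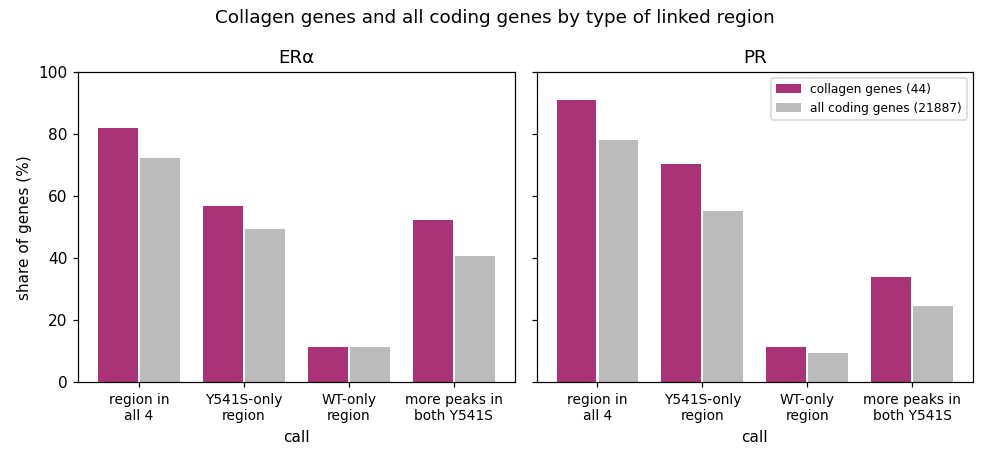
Share of genes, in percent, with a shared, a Y541S-only or a WT-only region within 50 kb, or with more peaks in both Y541S than in both WT libraries, for ERα (left) and PR (right); dark bars are the 44 collagen genes and grey bars all 21887 coding genes. For ERα the dark and grey bars are 81.8% and 72.4% for shared and 11.4% and 11.5% for WT-only regions.

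By class, a Y541S-only ERα region was near 7 of 11 fibrillar, 4 of 6 basement membrane and 14 of 27 other collagen genes, and a Y541S-only PR region near 10, 5 and 16, beside the 49.4% and 55.2% of coding genes. The closest coding gene to a region was itself a collagen gene for 56 of the 107 shared and 35 of the 43 Y541S-only ERα regions, and for 104 of 166 and 41 of 59 PR regions. Of the shared ERα regions near collagen genes, 30 lay within 1 kb of some start site (28.0%, against 32.4% of all shared ERα regions), and 2 of these starts belonged to a collagen gene. Of the shared PR regions, 26 did (15.7%, against 15.3%), with 1 at a collagen start. Most of these start sites therefore belonged to neighbouring genes. Members without a promoter sequence, such as Col1a1, had no start site here, so a region at their start could not count as one at a collagen start.

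More ERα peaks in both Y541S than in both WT libraries were found at 23 collagen genes (52.3%), against 40.8% of coding genes, and fewer at 0, against 0.95%. For PR the counts were 15 (34.1%, against 24.5%) and 0 (against 3.15%). These shares were not set against genes of similar length, and a longer span takes in more peaks. With lists of equal length fewer members were called. Among the 50000 strongest peaks, 4 collagen genes had more ERα peaks in both Y541S libraries (9.09%, against 8.64%) and 5 more PR peaks (11.4%, against 6.69%). Among the 20000 strongest, the counts were 8 (18.2%, against 7.77%) and 0 (against 4.19%). Between receptors in WT, 2 collagen genes, Col12a1 and Col17a1, had more ERα than PR peaks in both libraries (4.55%, against 4.58%), and 9 had more PR (20.5%, against 27%). In Y541S, 11 had more ERα (25%, against 15.8%) and 3, Col22a1, Col4a6 and Col6a3, more PR (6.82%, against 18%).

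Taking both receptors together, the genotypes can be arranged in 36 ways within receptor, so the smallest exact two-sided permutation p is 0.0556, with ERα and PR libraries treated as independent. It was reached by 7 collagen genes with more peaks in Y541S (15.9%, against 13.7% of the 20268 coding genes tested) and 0 with fewer (against 0.0345%). The 7 were Col1a1, Col4a5, Col4a6 and Col14a1, described above, and Col9a2, Col19a1 and Col25a1, which fall outside the naming rule and were named after their values were seen. Among the 20000 strongest peaks of each list, the log2 difference turned to -0.015 at Col14a1, -0.15 at Col25a1 and -0.21 at Col9a2 and was 0 at Col4a5. For the receptors, Col12a1 reached it with more ERα peaks (2.27%, against 1.99%), and Col22a1, Col4a6 and Col6a3 with more PR peaks (6.82%, against 10.3%). A Benjamini-Hochberg adjustment over all genes cannot give a value below the smallest exact permutation p of 0.0556, so it could not single out a gene. The smallest adjusted p of the exact test was 0.405 for genotype and 0.452 for receptor.

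Genes that work with the collagens were described in the same way, from a list of 67 made of collagen-folding enzymes, processing and crosslinking enzymes, receptors, degrading proteases, small proteoglycans and further basement membrane proteins. A shared ERα region was near 55 of these (against 72.4% of coding genes) and a shared PR region near 64 (against 78.2%). A Y541S-only ERα region was near 49 (against 49.4%) and a Y541S-only PR region near 51 (against 55.2%). All 14 genes of collagen folding had shared regions of both receptors. Serpinh1, the collagen chaperone, had 13 and 11 ERα peaks in WT and 13 and 10 in Y541S, with overlap, whereas P4ha1, a prolyl hydroxylase needed for a stable triple helix, had 10 and 4 in WT and 16 and 11 in Y541S, without overlap. Ddr2, a receptor for fibrillar collagen, had 9 and 11 ERα peaks in WT and 19 and 13 in Y541S.

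Markers of the cell types a gland can hold were counted as well, since a peak does not show the cells it came from. More ERα peaks in both Y541S than in both WT libraries were found near 5 of 5 fibroblast markers, 4 of 5 basal, 1 of 5 adipocyte, 3 of 4 endothelial, 3 of 4 immune and 0 of 6 hormone-sensing luminal markers, against 40.8% of coding genes. The PR counts in that order were 3, 4, 2, 0, 0 and 2, against 24.5% of coding genes. The marker counts come from lists of unequal length and were not repeated with equal lists or genes of similar length. Among the 50000 strongest peaks, the ERα call held for 8.64% of coding genes. The fibroblast marker Dcn had 5 and 6 ERα peaks in WT and 12 and 10 in Y541S. At the luminal markers the genotypes met or overlapped, so an uncalled marker is not one with unchanged counts. In the order WT, WT, Y541S, Y541S, Pgr had 9, 11, 16 and 11 ERα peaks, Esr1 32, 19, 36 and 29, and Foxa1 2, 3, 3 and 7. Prlr had 17, 11, 17 and 15, Krt8 12, 9, 18 and 10, and Krt18 13, 10, 17 and 12. These markers were counted as genes with peaks and not as amounts of cells, and the part of cell makeup in the collagen counts was not tested.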

How the data were processed

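Peak lists of 8 ChIP-seq libraries, 1 list per library, were used as deposited, and their coordinates are in build mm10, per the submitters' processing notes. Which aligner and which peak caller made them is not given in the sources used here. For each peak the authors deposited a score, a fold enrichment over the local background (a ratio within the library), a −log10 p and a −log10 q; the lowest −log10 p was 2.00. Fold enrichments describe peaks within their own list.

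Groups came from the sample titles. Summits were assigned to RefSeq GRCm38.p6 genes within 50 kb, and 15 of 44 members share part of their window with another member, so class and total counts used merged windows (36 windows, 9.21 Mb). Peaks of the 4 libraries of a receptor that overlapped by at least 1 bp made a region. Log2 folds are of geometric means, and SE is over libraries. Gene counts over both receptors were tested on log2(count + 1) with an exact permutation test and Benjamini-Hochberg adjustment over 20268 genes. The calls and the test were also run on simulated counts. These held larger genotype differences than the peaks near collagen genes as a whole, no difference in list length, and only counting noise between replicates. They therefore do not show how the calls behave on the lists used here. Depth was recovered from fold and −log10 p (tolerance 0.001). Python 3.11.15, numpy 2.4.6, pandas 2.3.3 and scipy 1.17.1 were used.

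The members, gene lists and tests were chosen with earlier results of these data known. Named genes were 18 collagens of stroma and basement membrane plus, for each receptor, up to 4 with the most shared, Y541S-only or WT-only regions and the 3 with the best-placed shared or Y541S-only region. Alternatives were other windows, stricter p or q thresholds, equal list lengths, summit-based regions, another basement membrane class, the replicate block and leaving out each library. The promoter values, the class without X-linked genes and the 1 kb rule were chosen after seeing the data. Samples with D542G were not analysed here.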

Additional observations from a re-analysis of the deposited data

How the results depend on the processing

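In log2, the Y541S minus WT difference in peaks near collagen genes was 0.43 (ERα) and 0.74 (PR) at −log10 p of at least 5, and 0.45 (PR) at −log10 q of at least 1.3. It was 0.092 and -0.0094 among the 20000 strongest peaks, and -0.066 and -0.061 among the 50000 strongest. ERα against PR was -0.51, -0.31, 0.47 and 0.33 in these 4 settings. The fibrillar minus basement membrane density was 0.34 (ERα, 20000 strongest), and for PR -0.030 (−log10 p), -0.65 (20000) and -0.086 (50000). It was 0.17 and -0.089 with Col7a1, Col15a1 and Col18a1 added, and -0.19 and -0.40 without the X-linked genes. The cause was not tested.

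Members with a Y541S-only region were 10 (ERα) and 4 (PR) among the 20000 strongest peaks, 16 and 10 among the 50000 strongest, and 18 (PR) with 10 kb windows. Over all coding genes the shares in the first 2 settings were 14.8% and 8.64%, and 26.4% and 23.7%. WT-only counts were 3 (PR, 10 kb), 0 (PR, −log10 p), 2 (PR, −log10 q), 1 and 3 (20000, against 5.82% and 8.49% of coding genes), and 8 and 8 with regions from summits within 200 bp. Shared PR regions were near 22 members (20000), 50% against 45.5%. More peaks in both Y541S libraries were seen at 12 members (ERα, −log10 p), 8 and 0 (20000, against 7.77% and 4.19%), 4 and 5 (50000, against 8.64% and 6.69%), and 8 (PR, 10 kb). No share of coding genes is given for the −log10 p, −log10 q, 10 kb and 200 bp settings, so their counts cannot be set against other genes. At 20000, the log2 differences of Col14a1, Col25a1 and Col9a2 turned to -0.015, -0.15 and -0.21, and that of Col4a5 was 0.

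Promoters covered in all ERα libraries were 0 at −log10 p of at least 5 (against 24.3% of coding genes) and 0 (20000, against 16.4%). Under the 1 kb rule the counts in all libraries were 3 for ERα (8.57%, against 41.5%) and 1 for PR (2.86%, against 37.2%). Covered in at least 1 library were 9 (ERα, −log10 p, 25.7% against 49.8%) and 3 and 0 (20000, against 42.7% and 27.4%). Among the 50000 strongest peaks they were 12 for ERα (34.3%, against 52%) and 6 for PR (17.1%, against 48.2%).

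Leaving out each library in turn gave 32 to 44 members with a Y541S-only ERα region, 9 to 39 and 8 to 37 with a WT-only ERα or PR region, 17 to 26 with more PR peaks in both Y541S libraries, 1 to 3 and 0 to 3 with a promoter covered in all remaining ERα or PR libraries, and 8 to 15 in at least 1 PR library. With fewer libraries the definitions are easier to meet. No share of coding genes is given for these region and peak counts, so they cannot be set against other genes. Promoters were covered in all remaining libraries at 34.1% to 38.3% of coding genes for ERα and 29.5% to 42.7% for PR. In at least 1 PR library the share was 53.7% to 56.4%. The 8 came without Y541S PR replicate 2, and the 26 too.

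Replicate numbers were tested as pairs: the deviations of same-numbered libraries correlated at 0.11 (ERα) and 0.02 (PR) between genotypes, and at 0.12 (WT) and 0.056 (Y541S) between receptors, over 20268 genes. Not every value exceeds 0.1 and no label ties the numbers, so they were not used as pairs; whether ERα and PR libraries share chromatin is not known. The replicate block gave 26 members with more ERα and 19 with more PR peaks in Y541S, and left the log2 differences at 0.57, 0.22 and -0.09. List length did not follow depth throughout. WT PR replicate 1, with a background coverage of 2.68, had 82982 peaks, and WT PR replicate 2, at 0.927, had 93491. In each of the other groups the deeper library had the longer list. Between genotypes, WT ERα replicate 1 was deeper than both Y541S ERα libraries and had a shorter list than both. The part of depth in the list lengths and in the peak counts was not tested.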
